A study of Danio rerio with 3 samples.

Results

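Crystallins are the most abundant proteins of the lens, and their genes were taken by name from RNA-seq tables of whole zebrafish embryos. Genes whose name starts with *cryaa*, *cryab*, *cryba*, *crybb*, *crygm*, *crygn* or *crygs* numbered 57 of 31950. Of these, 3 are alpha, 13 are beta and 41 are gamma crystallins. Cryptochrome genes, whose names also start with *cry*, were left out by the rule.

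The embryos came from the *Tg(lyz:TagRFP)* line, whose neutrophils carry a red fluorescent protein, and mRNA encoding Halo-TEV-Keap1 was injected into all of them at the first cell divisions. Keap1 is the sensor that holds back the antioxidant transcription factor Nrf2. In Z-REX, a photocaged precursor bound by the Halo domain of this fusion protein releases a reactive aldehyde next to Keap1 under light. The libraries compared were 1 of non-treated embryos, 1 after Z-REX with HNE (4-hydroxynonenal) and 1 after Z-REX with HDE (4-hydroxydodecenal). HDE has the longer alkyl chain of the pair. The paper states that both were used in a form carrying an alkyne group. By the protocol, embryos were kept for 30 h in the dark with 1 μM of the HNE precursor, washed, lit at 365 nm and 0.5 mW per cm2 for 3 min, and lysed 1.5 h later, and the sources give the dose for the HNE precursor alone. The labels write Keap1, Keap2 and Keap3 for the 3 libraries, and this was read as a slip in numbering, since the protocol names Keap1 throughout. The injected mRNA is not restricted to any tissue. In its qRT-PCR and neutrophil counts the paper lists light alone as a control apart from non-treated embryos. Whether the sequenced non-treated embryos were washed or lit is not stated outright in the sources used here. In each comparison with them the aldehyde, its precursor, light and handling cannot be told apart.

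Each condition was sequenced from 1 library, so no difference below could be set against a spread between replicates, and condition, batch of embryos and library preparation cannot be told apart. Library totals lay between 15084289 and 17996107 counts. A gene's ratio is that of its counts in a pair of libraries after TMM normalization, a scaling that centres most genes on 1, and its 95% interval (exact, Clopper-Pearson) covers counting error only. A gene was counted as lower or higher at a change of at least 1.5-fold with a Benjamini-Hochberg adjusted p under 0.05 in the exact binomial test over 18563 genes, those averaging 10 counts or more. This test compares 2 libraries, not 2 conditions. In RNA from whole embryos, fewer lens cells and less crystallin RNA per lens cell cannot be told apart.

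Alpha crystallins are small heat-shock proteins that bind unfolding proteins and keep them soluble. Beta and gamma crystallins share another fold, the Greek key, and are structural proteins that pack densely in the elongated fibre cells and give the lens its refractive power. Beta crystallins assemble into oligomers, whereas gamma crystallins stay monomeric. The gamma M crystallins, rich in methionine, are typical of fish lenses. Their most numerous group in the zebrafish tables is the set of 21 genes named *crygm2d1* to *crygm2d21*, called M2d below, a subgroup formed by name after the values had been seen.

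Transcripts of 48 of the 57 genes were counted in at least 1 library. The other 9 were listed at 0 counts in all 3 libraries, namely *cryaba*, which is 1 of the pair of alpha B genes, and the gamma genes *crygm1*, *crygm2a*, *crygm2b*, *crygm2e*, *crygm2f*, *crygm6*, *crygm7* and *crygs3*. A further 11 genes stayed under a mean of 10 counts, and 37 genes (1 alpha, 11 beta and 25 gamma, of which 20 are M2d) passed the filter. Closest above that limit was *cryba1a* with a mean of 13 counts. Closest below it were *crygn1* with 8, 12 and 6 counts in the non-treated, HNE and HDE libraries, *cryabb* with 5, 11 and 9, and *crybb3* with 9, 8 and 7. Among the remaining 8 genes under the limit no library held more than 4 counts.

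Levels were compared between genes as FPKM, which is scaled to transcript length. In every library *crybb1*, a beta B1 crystallin, was the most abundant member, at 495 FPKM in the non-treated, 372 in the HNE and 435 in the HDE library. It ranked at position 249, 293 and 247 among all genes. Next came *cryba4* (372, 260 and 317 FPKM in the same order), *cryba1b* (310, 224 and 260.0) and *crybb1l2* (285, 219 and 273), by the mean of the 3 libraries. Among gamma genes the most abundant were *crygn2*, a gamma N crystallin (223, 150 and 189 FPKM), *crygm2d8* (182, 109 and 167), *crygm2d10* (176, 85.6 and 137) and *crygm2d13* (155, 82.9 and 118). The level of *cryaa*, encoding alpha A crystallin, was far lower, at 5.40, 1.36 and 3.62 FPKM, and *cryabb* was at 0.354, 0.635 and 0.280. Within the M2d group the level in the non-treated library ranged from 182 FPKM for *crygm2d8* to 4.63 for *crygm2d16*, apart from *crygm2d11*, which had 1 count in a single library.

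**Figure D1:**
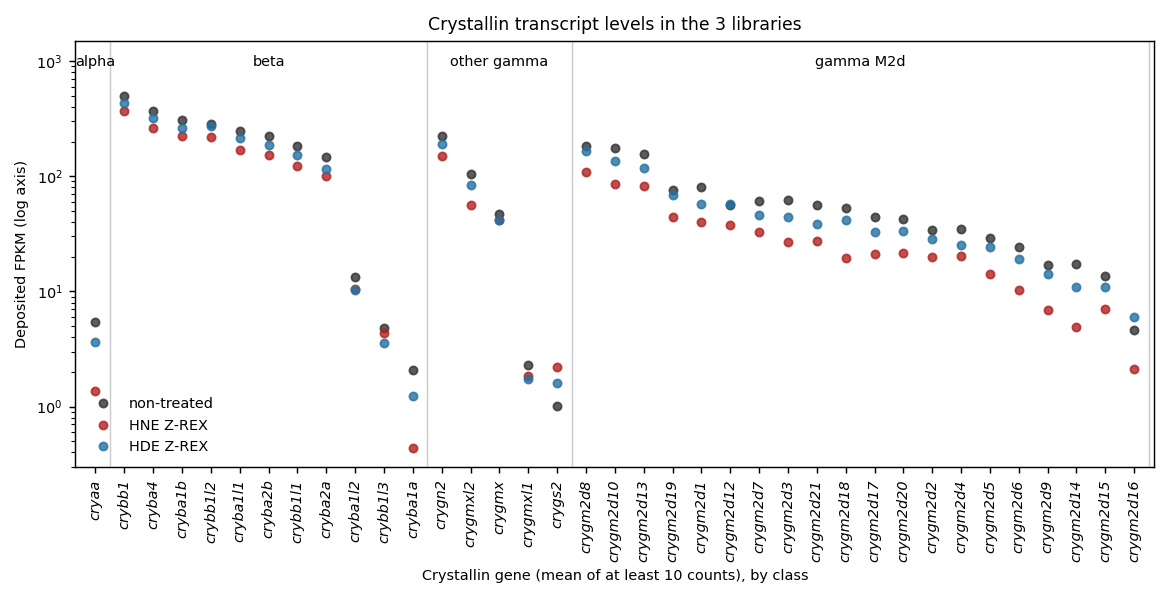
Deposited FPKM (log axis) of the 37 crystallin genes averaging 10 counts or more, by class, with 1 point per library (black, non-treated; red, HNE; blue, HDE) and no error bars, since each condition has 1 library. The HNE point is the lowest for cryaa and for each of the 20 M2d genes, while most beta genes, though not cryba1a, show their points closer together and crygs2 is lowest in the non-treated library.

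Summed over all 57 genes, crystallins took 0.282% of the counts of the non-treated, 0.191% of the HNE and 0.253% of the HDE library. Their summed level was 3883, 2521 and 3275 FPKM. Beta genes held 58.7% of it in the non-treated library, 64.7% in the HNE and 60.2% in the HDE library, and gamma genes 41.1%, 35.2% and 39.6%. Alpha genes held 0.148%, 0.0792% and 0.119%. The share of the gamma class was thus lowest in the HNE library, and that of the alpha class as well.

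Comparing HNE Z-REX with the non-treated library asked which transcripts differ after the whole procedure with the shorter aldehyde. Crystallin transcripts were lower: 22 of the 37 genes tested passed the threshold downwards and 0 upwards, where 1.62% of all tested genes passed downwards and 1.75% upwards. A ratio below 1 was found for 36 of the 37 genes, against 49.4% of all tested genes. The interval lay wholly below 1 for 33 genes, spanned 1 for 3 and lay above 1 for *crygs2*. The median ratio of the 37 genes was 0.567, on the log2 scale −0.82, beside 0.0037 for all tested genes. Summed over all members, counts fell to 0.674 of the non-treated level (95% interval 0.664 to 0.683). Where replicate libraries were assumed to vary by a biological coefficient of variation of 0.1, edgeR's exact test called 14 genes, and at 0.2 it called 0. Of all tested genes it called 149 at 0.1, 73 of them lower, and 34 at 0.2, 12 of them lower.

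Among alpha genes only *cryaa* could be tested. It had 120 counts in the non-treated, 30 in the HNE and 71 in the HDE library, so the HNE library was lowest and the HDE library stood between the other two. Its HNE ratio was 0.252 (0.163 to 0.379, adjusted p = 3.5e-12, exact binomial test with Benjamini-Hochberg adjustment), the second lowest of all tested members. The other alpha gene with counts, *cryabb*, which is broadly expressed outside the lens as well, had its lowest count (5) in the non-treated library. Counts summed over the 3 alpha genes gave 0.331 (0.227 to 0.475), which rests on *cryaa*: without it the summed ratio was 2.22, from 5 and 11 counts.

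Beta genes were moderately and evenly lower. Their 11 tested members all had HNE ratios below 1, with a median of 0.706, but only *cryba1a* passed the threshold. It is the least abundant of them, with 22, 5 and 12 counts, a ratio of 0.229 (0.0679 to 0.621) and an adjusted p of 0.015 in the exact binomial test, a call that rests on few counts. The other 10 lay between 0.676 for *crybb1l1* and 0.781 for *cryba1l2*. The most abundant member, *crybb1*, had 6603 counts in the non-treated, 4927 in the HNE and 5123 in the HDE library, a ratio of 0.753 (0.726 to 0.782). For *cryba4*, a beta A4 crystallin, the counts were 3435, 2384 and 2588 and the ratio was 0.701 (0.665 to 0.739). Their intervals exclude 1, but both changes are smaller than 1.5-fold. Without regard to size, 10 of the beta genes reached an adjusted p under 0.05 in the exact binomial test. By that rule 2729 of all tested genes passed, and 7.46% of all tested genes passed downwards. The exception among the tested beta genes was *crybb1l3* (85, 65 and 62 counts). The highest ratios besides *cryba1l2* were those of *crybb1l3* at 0.772 and *crybb1l2* at 0.769, and the lowest besides *cryba1a* were *crybb1l1* at 0.676 and *cryba1l1* at 0.681. Summed beta counts gave 0.717 (0.706 to 0.729).

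The M2d genes were lower by more. Of the 20 tested, 19 passed the threshold, with a median ratio of 0.516 and a range from 0.289 for *crygm2d14* to 0.670 for *crygm2d12*. That last gene, with 631, 419 and 565 counts, had an interval of 0.591 to 0.760 and missed only the fold limit. Lowest after *crygm2d14* were *crygm2d9* with 190, 70 and 130 counts (ratio 0.372, 0.279 to 0.492) and *crygm2d18* with 410, 151 and 288 (0.372, 0.306 to 0.449). In both, the HNE library was lowest. The abundant *crygm2d10* fell from 1266 to 665 counts, with 941 in the HDE library, and its ratio was 0.530 (0.482 to 0.583). For *crygm2d13* the counts were 1175, 652 and 838 and the ratio was 0.560 (0.508 to 0.617).

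Gamma genes outside the M2d group did not move together. Of the 5 tested, *crygmxl2* passed the threshold downwards with 1025, 552 and 718 counts and a ratio of 0.544 (0.489 to 0.604). The gamma N gene *crygn2* had 3172, 2113 and 2371 counts and a ratio of 0.673 (0.636 to 0.711), just short of the fold limit. For *crygmx* the counts of 528, 467 and 412 gave 0.893 (0.787 to 1.01), and for *crygmxl1*, with 29, 23 and 19 counts, the ratio was 0.801 (0.442 to 1.43). The gamma S gene *crygs2* was the only tested member with a ratio above 1. It had 13 counts in the non-treated, 28 in the HNE and 18 in the HDE library, and its ratio of 2.17 (1.09 to 4.57) had an adjusted p of 0.099 in the exact binomial test.

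Differences between the alpha, beta and gamma classes in the HNE comparison exceeded counting error. The ratio of summed gamma counts, 0.578 (0.563 to 0.594), was 0.806 of the beta ratio (0.782 to 0.831). Within the gamma class, M2d counts summed to 0.535 (0.518 to 0.553) of the non-treated level and the other gamma counts to 0.676 (0.646 to 0.707). The other gamma ratio was 0.942 of the beta ratio (0.898 to 0.988). Most of these other gamma counts were those of *crygn2*, and the median ratio of the 5 tested genes was 0.801. The split is described only, since the subgroup was formed afterwards. The alpha ratio was 0.462 of the beta ratio (0.324 to 0.657) and 0.573 of the gamma ratio (0.402 to 0.816), both through *cryaa*. These intervals do not include the spread between libraries, which could not be measured.

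**Figure D2:**
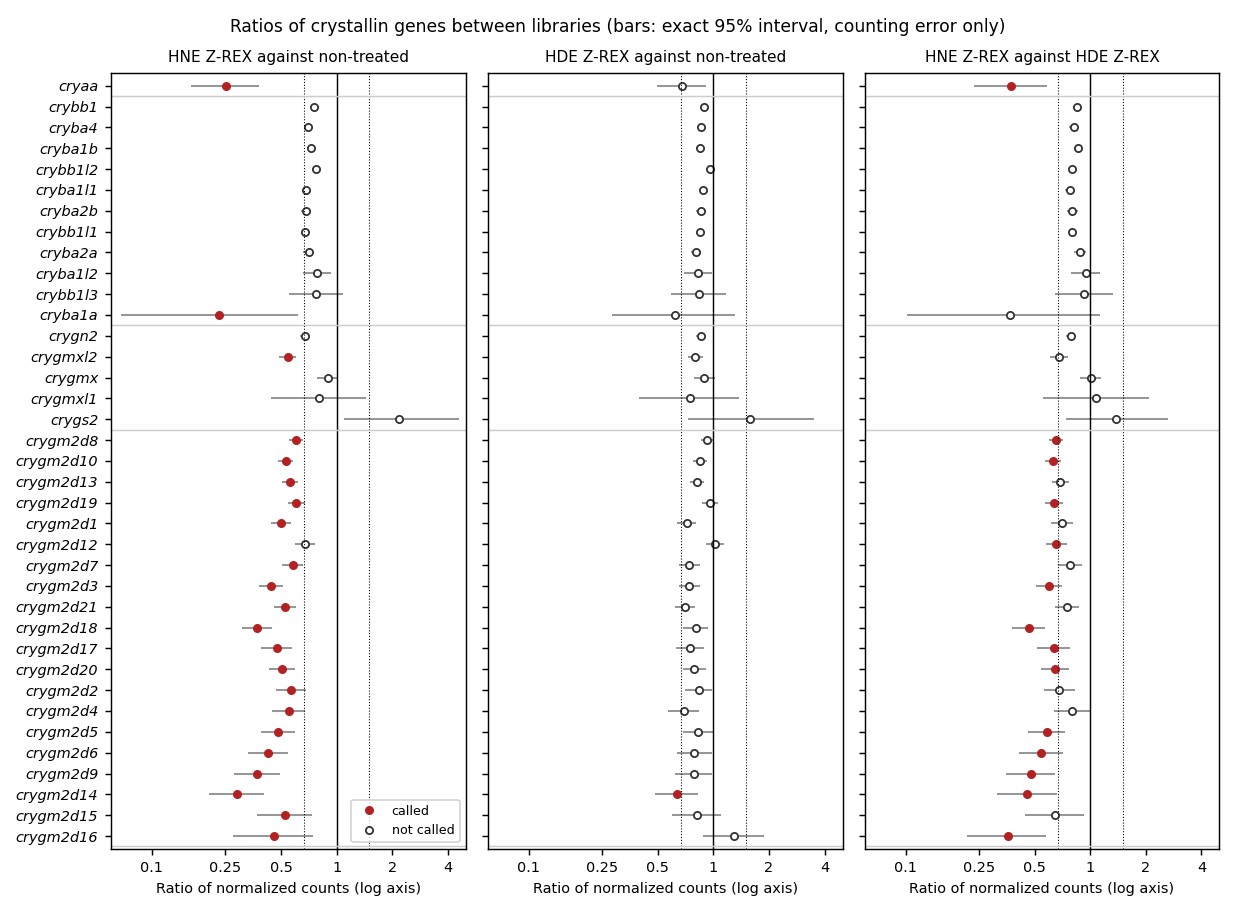
Ratio of normalized counts (log axis) for each of the 37 tested crystallin genes in the 3 comparisons, with exact 95% intervals for counting error; filled points passed the threshold and dotted lines mark 1.5-fold. Left, 22 points are filled, 19 of them M2d genes; middle, crygm2d14 alone is filled; right, 14 are filled, cryaa and 13 M2d genes.

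Comparing HDE Z-REX with the same non-treated library asked the same of the procedure with the longer aldehyde. Crystallins were slightly lower, and 1 of the 37 genes, *crygm2d14*, passed the threshold downwards and 0 upwards, where 1.49% of all tested genes passed downwards and 2.77% upwards. The ratio was below 1 for 34 of 37 genes, against 49% of all tested genes, though *crybb1l2* lay so near 1 that scaling to total counts put it above. Intervals lay wholly below 1 for 27 genes and spanned 1 for 10. The median ratio was 0.828, on the log2 scale −0.27, beside 0.0072 for all tested genes. Skeletal muscle markers were lower too in this comparison, with a median log2 ratio of −0.23 and 18 of 18 genes below 1, and their part in the crystallin values was not tested. Summed counts gave 0.860 (0.848 to 0.871) for all members, 0.873 (0.859 to 0.887) for beta and 0.832 (0.812 to 0.852) for gamma genes. With no limit on the fold, 21 genes had an adjusted p under 0.05 in the exact binomial test, all of them lower. By that rule 3917 of all tested genes passed, 2067 of them downwards, which is 11.1% of all tested genes. With an assumed coefficient of variation of 0.1 or 0.2, edgeR's exact test called 0 crystallin genes, and 131 and 16 of all tested genes.

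By gene, *cryaa* had an HDE ratio of 0.675 (0.496 to 0.913), just short of 1.5-fold. The lowest beta ratios were *cryba1a* at 0.622 (0.281 to 1.31), *cryba2a* at 0.804 (0.752 to 0.859) and *cryba1l2* at 0.828 (0.695 to 0.986). The highest were *crybb1l2* at 0.962, *crybb1* at 0.885 (0.853 to 0.918) and *cryba1l1* at 0.880 (0.836 to 0.925). Of the M2d genes, *crygm2d14*, whose reads were divided with another gene, was lowest at 0.633 (0.484 to 0.823, adjusted p = 0.0036, exact binomial test), followed by *crygm2d4* at 0.693 (0.570 to 0.839) and *crygm2d21* at 0.701 (0.617 to 0.796). The highest ratios in the gamma class were *crygs2* at 1.58 (0.732 to 3.51), *crygm2d16* at 1.29 (0.880 to 1.88) and *crygm2d12* at 1.02 (0.910 to 1.15), and none of these intervals excludes 1. The gamma ratio was 0.953 of the beta ratio (0.926 to 0.981). Summed M2d and other gamma counts gave 0.825 (0.802 to 0.850) and 0.847 (0.811 to 0.885). Described only, since the subgroup was formed afterwards, the M2d ratio was 0.946 of the beta ratio (0.915 to 0.978). The other gamma ratio was 0.970 of it (0.927 to 1.02), an interval that includes 1. Between alpha and beta genes no difference beyond counting error was seen, the alpha ratio being 0.837 of the beta ratio (0.632 to 1.11).

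Both comparisons above use the same non-treated library, so their values stand side by side and their likeness was not tested. A direct comparison of the HNE with the HDE library, 1 pair of compounds that differ in chain length, takes no ratio to that library. The non-treated library still entered the TMM scaling and the filter, which used all 3 libraries. Crystallins were lower in the HNE library: 14 of 37 genes passed the threshold downwards and 0 upwards, where 2.3% of all tested genes passed downwards and 1.21% upwards. The ratio was below 1 for 34 genes, against 50.1% of all tested genes, and for *crygmx*, at 1.00 (0.877 to 1.15), it fell below 1 when scaled to total counts. By FPKM, *crybb1l3* and *cryba1l2* lay above 1, at 1.22 and 1.01. The median ratio was 0.689, on the log2 scale −0.54, beside −0.00077 for all tested genes. Retina markers also lay lower in the HNE than in the HDE library, with 11 of 13 below 1 and a median log2 ratio of −0.24, as did lens fibre genes, with 9 of 11 and −0.17, and their part in the crystallin values was not tested. The 14 genes were *cryaa*, at 0.374 (0.236 to 0.581), and 13 M2d genes, and 0 were beta genes. At an assumed coefficient of variation of 0.1 edgeR's exact test called *cryaa*, *crygm2d16* and *crygm2d18*, and at 0.2 it called 0. Of all tested genes it called 106 at 0.1, 85 of them lower, and 19 at 0.2, 18 of them lower. Whether the embryos received equal doses of both precursors is not stated in the sources used here.

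The lowest ratios between the aldehydes were again those of M2d genes, *cryaa* and *cryba1a*. In the M2d group these were *crygm2d16* (55, 25 and 62 counts, ratio 0.357, 0.215 to 0.576), *crygm2d14* (0.457, 0.314 to 0.657) and *crygm2d18* (0.464, 0.378 to 0.567). For *crygm2d16* the HNE library was lowest and the HDE library highest. Among beta genes the ratio was lowest for *cryba1a* at 0.369 (0.102 to 1.12), *cryba1l1* at 0.775 (0.733 to 0.819) and *crybb1l2* at 0.799 (0.766 to 0.834), and highest for *cryba1l2* at 0.943 (0.784 to 1.13), *crybb1l3* at 0.928 (0.645 to 1.34) and *cryba2a* at 0.878 (0.817 to 0.944). The gamma genes with ratios above 1 were *crygs2* at 1.38 (0.735 to 2.64), *crygmxl1* at 1.07 (0.558 to 2.08) and *crygmx*. For summed counts the ratio was 0.783 (0.772 to 0.795) over all members and 0.822 (0.808 to 0.836) in the beta class. It was 0.648 (0.626 to 0.671) in M2d and 0.798 (0.760 to 0.837) in the other gamma genes. Of the other gamma counts, *crygn2* held 2113 of 3200 in the HNE and 2371 of 3549 in the HDE library. The median ratio of the 5 tested other gamma genes was 1.00, with 2 of them below 1. The gamma ratio was 0.846 of the beta ratio (0.818 to 0.874), and the alpha ratio was 0.552 of it (0.379 to 0.804). Taken apart, and described only since the subgroup was formed afterwards, the M2d ratio was 0.789 of the beta ratio (0.759 to 0.819). The other gamma ratio was 0.971 of it (0.923 to 1.02), an interval that includes 1.

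**Figure D3:**
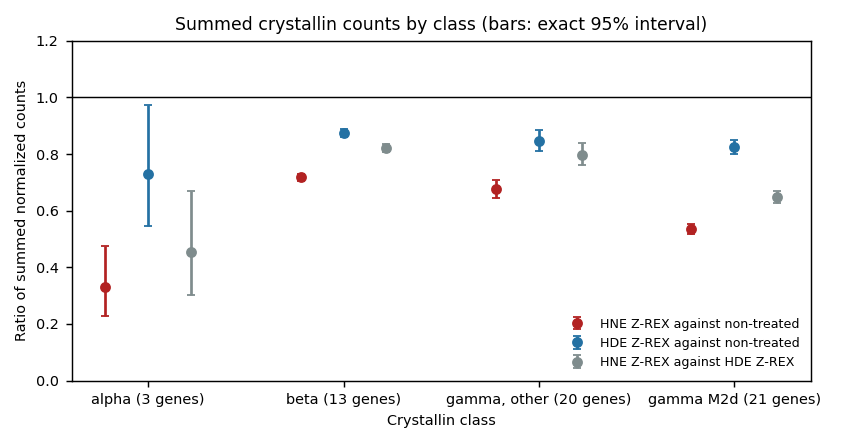
Ratio of summed normalized counts by crystallin class (linear axis from 0; bars, exact 95% interval for counting error) for HNE against non-treated (red), HDE against non-treated (blue) and HNE against HDE (grey). In the HNE comparison M2d lies at 0.535, below the other gamma genes (0.676) and the beta class (0.717). With HDE these classes lie between 0.825 and 0.873. The alpha point rests on cryaa, and most counts of the other gamma genes are those of crygn2.

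Many M2d genes are near copies of each other, and the deposited counts of 9 of them are fractional, as happens when reads that fit several genes are divided among them. Which genes exchanged reads was found from sums: 4 groups of the 9 genes add up to whole numbers in all 3 libraries, so their reads were shared within the group and the class sums hold all of them. One is *crygm2d1* (800, 397 and 501 counts) with *crygm2d14* (164, 46.8 and 91.4). Their sum, 964, 444 and 592 counts, gave an HNE ratio of 0.465 (0.415 to 0.521) and an HDE ratio of 0.701 (0.631 to 0.777). The only gene that passed the threshold in the HDE comparison is thus a member of a pair whose sum did not reach 1.5-fold.

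As sums, the other groups were lower by over 1.5-fold in the HNE comparison. *crygm2d17* (340, 160 and 223 counts) with *crygm2d19* (862, 517 and 720) gave 0.569 (0.517 to 0.625). *crygm2d5* (277, 132 and 201) with *crygm2d20* (451, 227 and 312) gave 0.498 (0.438 to 0.566). The trio *crygm2d2* (333, 187 and 243), *crygm2d21* (638, 333 and 392) and *crygm2d8* (1406, 838 and 1135) gave 0.577 (0.539 to 0.617). Against HDE, the 4 sums had HNE ratios of 0.664, 0.635, 0.619 and 0.679. The last, that of the trio, did not reach 1.5-fold, though its member *crygm2d8* passed the threshold there at 0.653. How far a ratio of 1 such gene reflects that gene alone cannot be told from these counts, and the same holds for whole-number counts of near copies if reads were assigned to a single gene.

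In the RefSeq annotation of a later zebrafish assembly (GRCz12tu), used here for gene order only, all 57 symbols were found. Order was taken among protein-coding genes alone, and other kinds of genes lying between them were not examined. The 21 M2d genes stand in 1 uninterrupted run of 31 crystallin genes, which also holds *crygmxl1*, *crygm2c*, *crygm2a*, *crygm2b*, *crygm2e*, *crygm2f*, *crygm3*, *crygm5*, *crygs3* and *crygs4*. Of this run 21 genes were tested, the 20 M2d genes and *crygmxl1*, while the other 10 had at most 4 counts in any library. Besides it, 5 adjacent pairs were found, 4 of them of beta genes. Neighbours could differ: *crygmx*, with an HNE ratio of 0.893, stands next to *crygmxl2*, with 0.544.

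Genes of lens fibre cells other than crystallins were lower as well in most cases. Of 17 genes listed as lens fibre genes 11 were tested. In the HNE comparison 10 of the 11 had ratios below 1, against 49.4% of all tested genes, and the median log2 ratio was −0.35. The threshold was passed downwards by 3 and upwards by 0, where 1.62% of all tested genes passed downwards and 1.75% upwards. The 3 genes were *lctla*, a lactase-like protein (182, 60 and 121 counts, ratio 0.333, 0.244 to 0.448), *grifin*, a galectin-related lens protein (66, 30 and 37, 0.459, 0.288 to 0.717) and *bfsp2*, a beaded filament protein (184, 100 and 125, 0.549, 0.426 to 0.704). The more abundant fibre genes, which encode membrane proteins, lay nearer to 1: *lim2.4* (1144, 822 and 812 counts) at 0.725, *lim2.1* (409, 377 and 376) at 0.931 and *mipb*, an aquaporin 0 water channel (1489, 1297 and 1180), at 0.879. In the HDE comparison 0 of the 11 passed, 9 had ratios below 1, against 49% of all tested genes, and the median was −0.18. Between HNE and HDE only *lctla* passed, at 0.439 (0.316 to 0.603), where 2.3% of all tested genes passed downwards. The summed level of the list was 271 FPKM in the non-treated, 219 in the HNE and 240 in the HDE library.

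Of 7 transcription factors of the lens, 6 were tested, and their medians were 0.060 (HNE) and 0.036 (HDE) on the log2 scale. The most abundant, *sox1b*, *sox1a* and *pitx3*, had HNE ratios of 1.12, 0.869 and 1.16. Of all tested genes 1.62% passed the threshold downwards with HNE, 1.49% with HDE and 2.3% between HNE and HDE. The sole gene called was *maf*, which activates crystallin genes in other vertebrates, with 168, 60.8 and 94.4 counts. It was lower in each comparison, at 0.367 with HNE, 0.638 with HDE and 0.574 between them. Its counts are fractional, however, and together with those of the gene *CU041396.1* they were whole in each library, at 328, 321 and 251. These sums gave 0.988 (0.844 to 1.16) with HNE and 0.873 (0.738 to 1.03) with HDE. Between HNE and HDE they gave 1.13 (0.956 to 1.34). The summed counts of the pair did not pass the threshold.

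Alpha crystallins belong to the small heat-shock family, and 9 other genes listed for it were tested. Of these, 7 had HNE ratios below 1, against 49.4% of all tested genes, and the median log2 ratio was −0.087. With HNE 1 was lower, *hspb9* (376, 193 and 662 counts, ratio 0.518, 0.433 to 0.618), beside 1.62% of all tested genes. With HDE 2 were higher, beside 2.77% of all tested genes: *hspb9* at 2.01 (1.77 to 2.29) and *hspb11* (242, 189 and 372 counts) at 1.75 (1.49 to 2.07). Both were lower in the HNE than in the HDE library. A second gene of that name, *HSPB11* (55, 62 and 43 counts), was not called. It is counted among the 9 by name alone, and whether it belongs to the family was not examined. Its ratio was 0.892 (0.584 to 1.35) with HDE and 1.28 (0.851 to 1.93) between HNE and HDE. The most abundant, *hspb1* (887, 827 and 858 counts), had a ratio of 0.941 with HNE and an interval of 1.00 to 1.21 with HDE, and *hspb8* (1143, 1141 and 957) had ratios of 1.01 and 0.955. Other genes with a crystallin name in current annotation, left out by the rule, numbered 6 tested with 0 calls. Their medians were 0.019 with HNE and 0.037 with HDE, and the most abundant were *cryl1* (331, 231 and 216 counts) at 0.705 and 0.745, *cryz* at 0.910 and 0.846 and *cryzl1* at 1.02 and 0.972.

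Markers of other tissues show what else moved between the libraries. For scale, 1.62% of all tested genes passed the threshold downwards and 1.75% upwards with HNE, and 1.49% and 2.77% with HDE. In the retina, of 13 genes tested 0 passed with HNE and *otx5* (21, 22 and 38 counts) was higher with HDE at 2.06, and the summed level was 83.9, 80.6 and 98.2 FPKM. Its abundant members included *rx1* (538, 626 and 609 counts) and *six6b* (292, 232 and 281). In the epidermis, of 14 genes only *epcam* passed, higher at 1.81 with HNE and 1.70 with HDE, and the sum was between 17631 and 18100.5 FPKM, led by *krt4*, *cyt1* and *cyt1l* with HNE ratios of 0.998, 1.05 and 1.16. Skeletal muscle genes summed to 53099.9 FPKM in the non-treated, 48734 in the HNE and 45301 in the HDE library. Of its 18 genes *acta1a* and *acta1b* were lower with HDE, at 0.522 and 0.610, and *acta1a* was higher in the HNE than in the HDE library at 1.68, while the most abundant, *actc1b*, *atp2a1* and *pvalb2*, had HDE ratios of 0.846, 0.991 and 0.893. Of 9 neuronal genes tested 0 passed, *gap43* was at 0 in all libraries, *elavl3*, *stmn1b* and *sncb* had HNE ratios of 0.961, 0.885 and 0.985, and the sum was 428, 410 and 424 FPKM. Ratios below 1 with HNE were found for 6 of 13 retina, 6 of 14 epidermis, 16 of 18 muscle and 7 of 9 neuronal genes. Of all tested genes 49.4% had ratios below 1. The median log2 ratios with HNE were 0.058 in the retina, 0.020 in the epidermis, −0.13 in muscle and −0.057 in neurons. With HDE they were 0.13, 0.031, −0.23 and −0.060, and between HNE and HDE −0.24, −0.016, 0.076 and −0.048. The part of tissue composition in the crystallin values was not tested.

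**Figure D4:**
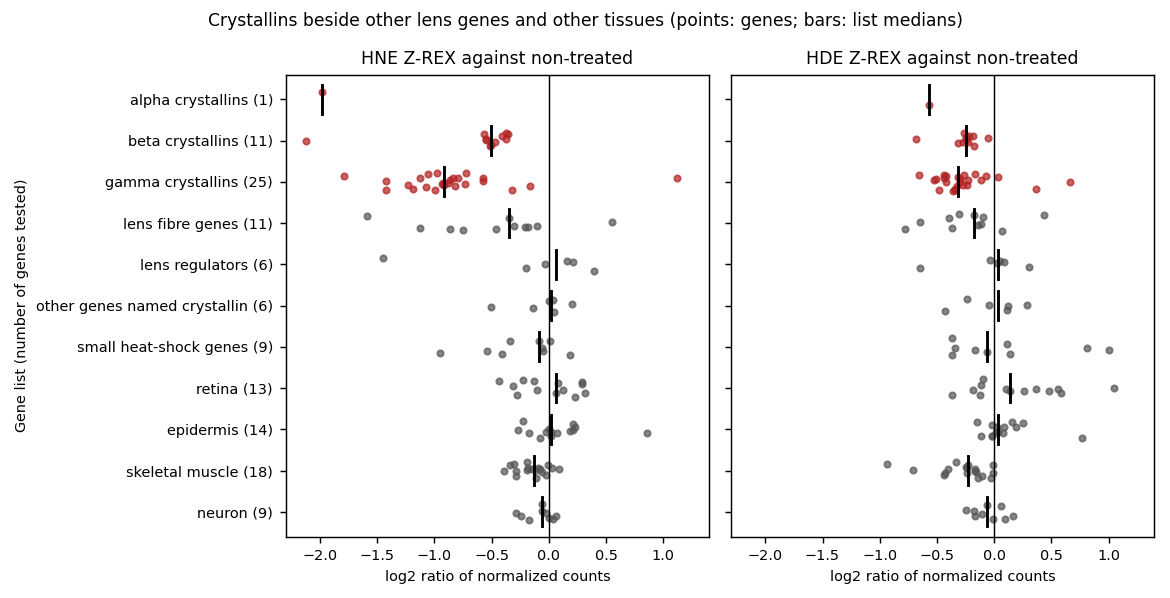
Log2 ratio of normalized counts against the non-treated library for each tested gene (points) of the crystallin classes (red) and of the other lists (grey), with list medians as bars, for HNE (left) and HDE (right). With HNE the medians of the beta, gamma and lens fibre lists are negative (−0.50, −0.92 and −0.35), while those of the other lists with several genes lie between −0.13 and 0.060.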

How the data were processed

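Polyadenylated RNA of zebrafish embryos was sequenced in directional libraries, 1 per condition. Per the study's methods, the authors trimmed reads with cutadapt 1.8 and mapped them to GRCz10 (Ensembl) with TopHat2 2.1. The authors deposited estimated counts per gene, unscaled, whose counting tool is not given in the sources used here, and FPKM values made with Cufflinks 2.2. Of 31950 genes, 841 have fractional counts in at least 1 library (beyond 0.001 of a whole number). Counts were rounded, normalized by TMM (edgeR 4.0.16, R 4.3.3) and tested pairwise between libraries with the two-sided exact binomial test conditional on their sum (scipy 1.17.1) with Benjamini-Hochberg adjustment over the 18563 genes averaging 10 counts or more. No replicate model could be fitted, and the binomial test takes no account of variation between embryos.

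Class sums have exact 95% Clopper-Pearson intervals, and ratios of 2 class ratios have intervals from their counts (Woolf). The script was tested on simulated counts with Poisson noise alone. Those counts hold no variation between libraries, so they cannot show how the calls behave under it. Named genes are all alpha members, the 4 most abundant beta and gamma members, the 3 highest and 3 lowest ratios of each comparison in those classes, members with fractional counts, and, of each other list, the 3 most abundant genes and all calls. A gene that this rule names is not reported here. Other members named, and *cryabb* without *cryaa*, the M2d subgroup, gene order and the *maf* sum, were chosen after values were seen. All members and lists were chosen with earlier results of these data known. Alternatives were size factors of DESeq2 1.42.0, library totals (also leaving out the 20 most abundant genes), and other filters and fold limits. Biological coefficients of variation between replicate libraries were also set to 0.1 and 0.2 (edgeR's exact test). Further alternatives were FPKM with a pseudocount of 0.1 or 1, and sums without the most abundant member or without fractional members. Figures were drawn with matplotlib 3.10.9.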

Additional observations from a re-analysis of the deposited data

Results flagged for a closer look

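For *crygm2d16* and *crygm2d12* the library after HNE lay below and the library after HDE above the non-treated one, and the HNE and HDE libraries differed past the threshold in the exact binomial test. The log2 ratio of HNE to HDE was −1.49 for *crygm2d16* (55, 25 and 62 counts in the non-treated, HNE and HDE libraries) and −0.61 for *crygm2d12* (631, 419 and 565 counts). The HDE interval of each spanned 1, at 0.880 to 1.88 and 0.910 to 1.15, so the opposite direction itself is within counting error.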

How the results depend on the processing

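No paired analysis was possible because each condition has 1 library, and for the same reason no replicate could be left out. The number of crystallin genes counted as differing with HNE, with HDE and between HNE and HDE was 22, 1 and 14, beside 624, 791 and 651 of all tested genes. In edgeR's exact test with the coefficient of variation set to 0.1 it was 14, 0 and 3, where 149, 131 and 106 of all tested genes passed the threshold. At 0.2 it was 0, 0 and 0, where 34, 16 and 19 of all tested genes passed. A 2-fold limit gave 10, 0 and 5, where 268, 282 and 248 of all tested genes passed. With no fold limit the crystallin numbers were 33, 21 and 29, where 2729, 3917 and 3093 of all tested genes passed. Under the other scalings and filters the crystallin numbers were 20 to 22, 1 and 13 to 18, and every crystallin call was downwards. Over all tested genes the numbers were then 464 to 630, 587 to 897 and 489 to 703. Among all genes called, the share lower was 34.9% with HDE and 65.6% between HNE and HDE, but 21.4% and 77.1% with total counts, or 22.6% and 75.8% without the 20 most abundant genes.

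The alpha median without a filter (log2 scale, pseudocount of 1 count) was 0.013, 0.18 and −0.16, since it then includes *cryabb* and *cryaba*. These are the values of *cryaba*, the middle gene, which had 0 counts in all 3 libraries. They reflect only the pseudocount and the library sizes. The alpha sum without *cryaa* was 2.22, 2.05 and 1.08. The gamma sum with HNE was 0.554 without *crygn2* and 0.596 with whole counts only, and against HDE it was 0.670 without *crygn2*. With total counts the beta sums were 0.913 (HDE) and 0.791 (HNE against HDE) and the gamma sums 0.870 and 0.669, and without the 20 most abundant genes 0.908, 0.795, 0.866 and 0.672. By counts in place of FPKM, the alpha share of crystallins was 0.247%, 0.121% and 0.210%, the beta share 69.0%, 73.5% and 70.1%, and the gamma share 30.7%, 26.4% and 29.7%. Of single genes, *crybb1l2* had log2 ratios of 0.0088 and 0.0023 with HDE under the scalings to total counts, and *crygmx* of −0.050 and −0.044 between HNE and HDE. Their main values lay within counting error of 0. By FPKM, *crybb1l3* and *cryba1l2* turned above 1 between HNE and HDE (1.22 and 1.01, inside their counting intervals), and *crygm2d10* with HDE was 0.777, just below its interval. The alpha sum without *cryaa* holds the counts of *cryabb* alone, which is under a mean of 10 counts. Apart from it and the settings without a filter, no ratio was computed for the 20 members under that mean. Of these 20, 9 were at 0 in all 3 libraries. Whether greater depth would have shown them was not tested.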
